A study of Homo sapiens with 2 samples.

Results

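The genes described here carry glucose and related sugars into the cell and through glycolysis, gluconeogenesis, glycogen and the pentose phosphate pathway. The group was a list of 54 named genes, matched by gene symbol to the 60623 gene entries of the deposited files, and it was divided by role into 10 pathways. The rule named the genes and used no measured value, although the list was drawn up with earlier results of these data known. The data came from 2 libraries, 1 per group, of wild-type HepG2, an established cell line from a human liver cancer (hepatocellular carcinoma). In the FFA group, cells were loaded for 24 h with 1 mM free fatty acids, a mix of oleic and palmitic acid bound to albumin, as a culture model of the fatty liver cell. In the FFA + 9-cis-RA group, cells received the same fatty acids together with 10 μM 9-cis-retinoic acid, a vitamin A derivative and ligand of both RXR and RAR, which are nuclear receptors. Both libraries therefore came from fatty acid-loaded cells of a single tumor line, and both were assigned to the same batch in the sample records. The comparison addresses which transcripts of central carbon metabolism differ when 9-cis-RA is added to fatty acid-loaded cells.

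Glycolysis converts glucose to pyruvate, and gluconeogenesis runs largely the same enzymes in reverse, with separate enzymes at the irreversible steps. The liver uses both directions, taking up glucose after a meal and releasing it in fasting, and it buffers glucose as glycogen. Fructose 2,6-bisphosphate, a small regulatory molecule, switches the flow between the directions. The pentose phosphate pathway diverts glucose 6-phosphate to make NADPH and ribose. Many of these enzymes exist as isoforms, with one form typical of the liver and another typical of muscle, brain or dividing and tumor cells. HepG2 cells keep many hepatocyte genes but carry a mixture of liver and tumor isoforms.

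The total of fragments counted on genes was 60821539 (FFA) and 57669670 (FFA + 9-cis-RA), and a count of 0 allowed up to 3 counts, or 0.0493 and 0.0520 CPM (counts scaled to the library total). Counts were divided by DESeq2 size factors, and the log2 fold change was the log2 of the normalized count plus 1 in FFA + 9-cis-RA over that in FFA, so that positive values were higher with 9-cis-RA. A gene entered the comparison with 10 or more counts in the libraries together, which left 20431 genes, with a median log2 fold change of -0.020. Each fold change carries an exact 95% interval (Clopper-Pearson), derived from how a gene's counts divided between the libraries. These intervals cover counting error only. Since a group was a single library, no replicate error, test or p-value can be given, and the differences are those between these libraries. In a bulk library, fewer cells with a transcript and less transcript per cell cannot be told apart. The retinoic acid-degrading enzyme gene CYP26A1, an established retinoid target, had 4 counts in FFA and 709 in FFA + 9-cis-RA. All 6 hepatocyte markers examined were counted in both libraries, at 278 or more, the leukocyte marker PTPRC was at 0 in both and the collagen genes COL1A1 and COL1A2 had at most 3 counts. The other 6 markers of stellate, endothelial and immune cells had 5 to 184 counts. The hepatocyte markers differed in both directions, with a log2 fold change of -0.99 for AFP, -0.70 for ALB, -0.27 for TTR, 0.036 for SERPINA1, 0.039 for APOA1 and 0.84 for FGB, and their part in the results below was not tested.

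Of the 54 genes, 51 were compared. LDHB and GYS2 had 0 counts in both libraries, and FBP2, a muscle-type fructose bisphosphatase, had 1 and 3 counts. The zeros of LDHB and GYS2 cannot be read as absence, because 93.5% and 94.3% of their coding bases lie under exons of a read-through gene annotated on the same strand, and fragments over more than 1 gene were not counted. The same holds for ALDOA, with 93.8% of its coding bases under a read-through gene that itself had 98 and 88 counts. The 913 and 1302 counts of ALDOA therefore describe its remaining exons and are not a level of this aldolase, and its log2 fold change of 0.54 is uncertain.

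At the size of a log2 fold change of 1, a small number of genes stood out. PCK1 and PFKFB3 were above 1, 2 of 51 genes (3.92%) beside 3.37% of all genes compared. PKLR and SLC2A2 were below -1, again 2 of 51 (3.92%) beside 4.90% of all genes. Above 0.5 were 4 genes (7.84%) beside a background of 9.03%, with PFKM and ALDOA added to the earlier pair, and below -0.5 were 5 genes (9.80%) beside 14.3%, with ENO2, KHK and FBP1 added. These shares were close to those of all genes above 1 and lower than them for the other folds.

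Most of the genes had slightly fewer normalized counts with 9-cis-RA. The counting interval lay wholly below 0 for 30 of the 51 genes (58.8%), beside 25.7% of all genes compared, and wholly above 0 for 12 (23.5%), beside 22.5%. The interval included 0 for 9 genes. Because narrow intervals follow from high counts and these enzymes are abundant, the same was counted among genes that reached 1000 counts in the libraries together, which took in 46 of the group. There, 29 of 46 (63.0%) lay below 0 beside 34.7% of such genes, and 10 (21.7%) lay above 0 beside 34.4%. In this abundant set a log2 fold change under -0.5 was seen for ENO2, KHK, PKLR and SLC2A2, 4 genes (8.70%) beside 4.38%. One above 0.5 was seen for PFKFB3 and ALDOA, 2 genes (4.35%) beside 1.73%, the value of ALDOA being uncertain. The split depended in part on how the libraries were scaled. With total-count scaling, 25 of the 46 lay below 0 and 12 above, while 26.7% and 44.9% of all such genes did. The median log2 fold change was -0.10 over the 51 genes (quartiles -0.28 and 0.060), beside -0.020 over all genes.

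**Figure D1:**
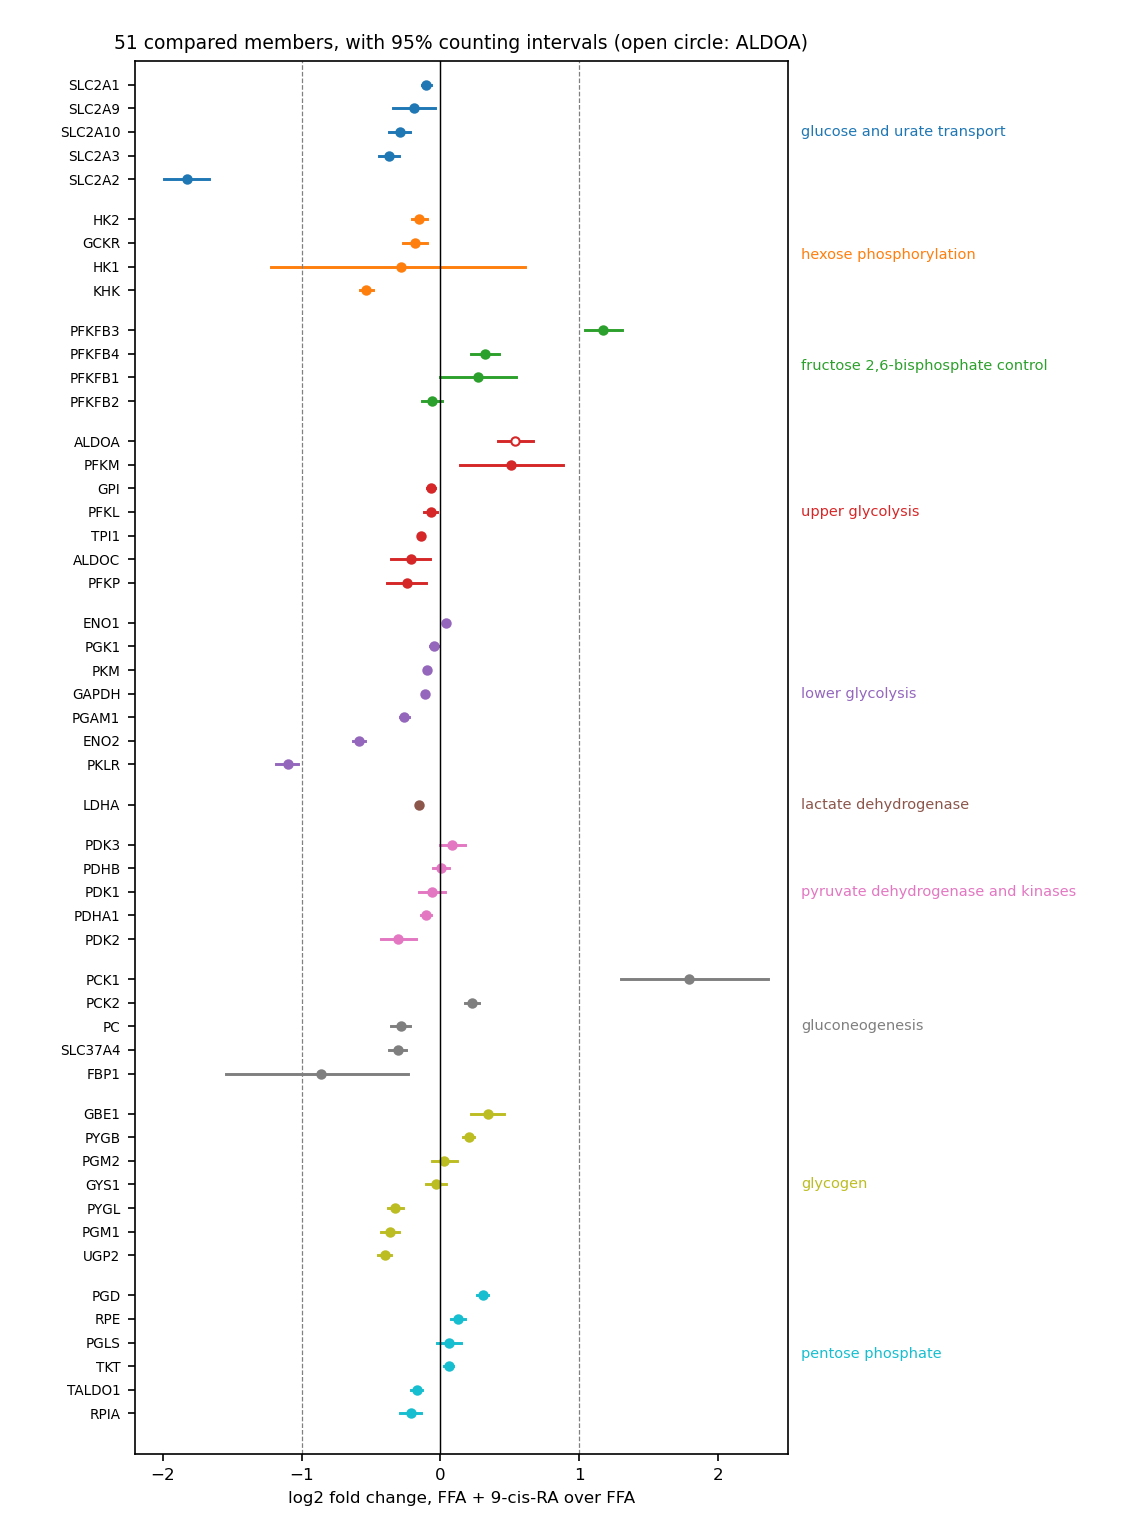
Log2 fold change (FFA + 9-cis-RA over FFA) of each of the 51 genes compared, grouped by pathway, with bars for the 95% counting interval from 1 library per group, dashed lines at -1 and 1 and an open circle for ALDOA. SLC2A2 at -1.82 and PKLR at -1.10 lie farthest to the lower side, PCK1 at 1.79 and PFKFB3 at 1.17 farthest to the upper side, and most other genes lie within 0.5 of 0.

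Promoter sequences of RefSeq (GRCh38.p14), 250 bases before to 50 after each annotated start, were found for 49 of the 54 genes, 82 entries in all, of which those of 1 gene can overlap. PCK1, KHK, SLC2A3, GYS2 and PFKFB2 had no entry. Stretches upstream of SLC2A2, PKLR and PFKFB3 are shown because these genes had large differences on well-counted transcripts and belong to a liver carrier, a liver isoform and a regulator, respectively. They exclude all exons of the gene's own annotation and are written 5′ to 3′ on the gene's strand, with positions counted from -1 just before the start. The SLC2A2 stretch is chr3:171026751-171026870 (minus strand), the PKLR stretch chr1:155301003-155301152 (minus strand) and the PFKFB3 stretch chr10:6202732-6202861 (plus strand). The PKLR and PFKFB3 starts used here lie inside the full span of each gene, downstream of another annotated start. For these genes the entry shown was the first that held the marked motif before its start. The motif was thus a condition of the choice. For SLC2A2 the first entry was taken. In PKLR, capitals mark a match to the pattern of a carbohydrate response element, CACGNG and CNCGTG with 5 bases between them, which begins at -126. In PFKFB3, capitals mark an E-box, CACGTG, which begins at -108.
SLC2A2: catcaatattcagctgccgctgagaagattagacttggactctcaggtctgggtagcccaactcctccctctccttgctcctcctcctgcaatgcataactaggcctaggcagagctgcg
PKLR: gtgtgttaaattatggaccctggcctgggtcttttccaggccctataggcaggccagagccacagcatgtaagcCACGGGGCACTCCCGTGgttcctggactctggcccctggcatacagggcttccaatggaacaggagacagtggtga
PFKFB3: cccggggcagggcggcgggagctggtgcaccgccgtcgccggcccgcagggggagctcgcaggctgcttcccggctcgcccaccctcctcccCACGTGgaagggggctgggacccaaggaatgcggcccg

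Motifs were searched by their letters on both strands of these windows and of all 35116 promoters in the table. The carbohydrate response pattern was present in 8 of the 35116 promoters (0.0228%), and PKLR was the single match among the 49 genes with an entry. The core of the hypoxia response element, ACGTG, was present in 29 of the 82 entries (35.4%), from 25 genes, beside 21.4% of all promoters. The E-box CACGTG, which contains ACGTG, was present in 10 entries (12.2%) beside 7.26%. The retinoid receptor half-site AGGTCA was present in 13 entries (15.9%) beside 13.8%, and direct repeats of it spaced by 1, 2 or 5 bases were in none of the 82, beside 8, 1 and 2 of all promoters. None of these motifs was found in the SLC2A2 window. A match is a run of letters and not a shown binding site, and the absence of one in a 300-base window says nothing about a factor acting elsewhere.

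All 5 listed carriers of sugars or urate had fewer normalized counts with 9-cis-RA, with a median log2 fold change of -0.29. SLC2A2 encodes GLUT2, the high-capacity carrier that lets glucose pass in and out of hepatocytes. SLC2A2 (chr3:170996347-171026743, ENSG00000163581) had 1428 counts in FFA and 395 in FFA + 9-cis-RA, or 19.9 and 5.99 TPM (counts scaled by gene length and library size). It was 3.54-fold lower, with a log2 fold change of -1.82 and a 95% interval of -1.99 to -1.66. This was the lowest value of the 51 genes. SLC2A1, the GLUT1 carrier found in most cells, had 16490 and 15069 counts, 178 and 176 TPM, and a log2 fold change of -0.10. SLC2A3, the high-affinity GLUT3 carrier of neurons, had 3889 and 2952 counts and a log2 fold change of -0.37. The log2 fold change of SLC2A10, a further hexose carrier, was -0.29 and that of the urate carrier SLC2A9 was -0.19. Of the summed TPM of SLC2A1, SLC2A2, SLC2A3 and SLC2A10, SLC2A1 made up 68.5% in FFA and 75.1% in FFA + 9-cis-RA, while SLC2A2 made up 7.68% and 2.55%. GLUT1 was thus the main transcript of these 4 carriers in both libraries, and the liver carrier contributed little. Carriers outside the group did not all have fewer counts. SLC2A8, of the same gene family, had 8404 and 8546 counts, 102 and 112 TPM, and a log2 fold change of 0.052. That of SLC2A13 was 0.30 (95% interval 0.14 to 0.46). Both are named after their values were seen. Of the 11 other transport genes compared, not all of them sugar carriers, 4 had an interval above 0 and 4 below.

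Hexose phosphorylation traps sugars inside the cell. KHK encodes ketohexokinase, which starts fructose breakdown in the liver. KHK had 8124 counts in FFA and 5508 in FFA + 9-cis-RA, 127 and 93.4 TPM, and was 1.45-fold lower (log2 fold change -0.53, 95% interval -0.58 to -0.48). HK2, the hexokinase abundant in muscle and tumors, had 5459 and 4824 counts and a log2 fold change of -0.15. GCKR, whose product holds the liver glucokinase inactive in the nucleus, had 2359 and 2034 counts and a log2 fold change of -0.19. HK1 was nearly uncounted, at 25 and 20 counts, with an interval of -1.22 to 0.61 that included 0. HK2 was at 42.9 and 41.1 TPM, and HKDC1, a further hexokinase gene outside the 54 that is named after its values were seen, was at 56.2 and 44.3 TPM with a log2 fold change of -0.43. HK2 was therefore not the most abundant hexokinase transcript.

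The enzymes that make and remove fructose 2,6-bisphosphate had the highest median of the 10 pathways, 0.29 over 4 genes, and none of the 4 had an interval below 0. PFKFB3 encodes an isoform with high kinase and little phosphatase activity, which raises fructose 2,6-bisphosphate and is common in proliferating cells. PFKFB3 (chr10:6144934-6254644, ENSG00000170525) had 670 counts in FFA and 1484 in FFA + 9-cis-RA, 5.22 and 12.6 TPM. It was 2.26-fold higher, with a log2 fold change of 1.17 and a 95% interval of 1.04 to 1.31. PFKFB4 had 1413 and 1731 counts and a log2 fold change of 0.32 (95% interval 0.22 to 0.42). PFKFB1, the liver isoform, had 207 and 245 counts and PFKFB2, first described in heart, had 3115 and 2926, and both intervals included 0. The summed TPM of the 4 genes went from 35.4 to 47.9. Within that sum, PFKFB3 took 14.8% in FFA and 26.2% in FFA + 9-cis-RA, and PFKFB2 took 41.2% and 31.0%. PFKFB2 was the largest of the 4 in both libraries, at 14.6 and 14.9 TPM.

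Upper glycolysis, from glucose 6-phosphate to the triose phosphates, differed little. Its median log2 fold change was -0.070 over 7 genes, which include the uncertain value of ALDOA. The summed TPM without ALDOA was 1003 in FFA and 977 in FFA + 9-cis-RA. TPI1, the triose phosphate isomerase, had 47848 and 42689 counts and a log2 fold change of -0.14. It was the most abundant of these genes apart from ALDOA, whose level cannot be read. GPI, the glucose phosphate isomerase, had a log2 fold change of -0.067. Phosphofructokinase 1, the main control step of glycolysis, is built from 3 kinds of subunit. The liver subunit PFKL had 7171 and 6704 counts and a log2 fold change of -0.070, and the platelet subunit PFKP 937 and 777 counts and a log2 fold change of -0.24. The muscle subunit PFKM had only 106 and 148 counts, with a log2 fold change of 0.51 (95% interval 0.14 to 0.88). PFKL made up 81.4% and 82.4% of the TPM of these subunits, and PFKM 1.48% and 2.24%, so the subunit make-up was nearly the same in both libraries. ALDOC, the brain-type aldolase, had 910 and 769 counts and a log2 fold change of -0.21.

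Lower glycolysis, from glyceraldehyde 3-phosphate to pyruvate, held the most abundant transcripts of the group. Its median log2 fold change was -0.11 over 7 genes, 6 of them with an interval below 0. GAPDH had 276940 and 251541 counts, 5507 and 5428 TPM, and made up 53.2% of the summed TPM of the members without ALDOA in both libraries. Its log2 fold change was -0.11 (95% interval -0.12 to -0.10). PGAM1, the phosphoglycerate mutase, had 16373 and 13406 counts and a log2 fold change of -0.26. PGK1, the phosphoglycerate kinase, had a log2 fold change of -0.047, which became 0.0018 with total-count scaling. Reads that map to several places were not counted, which touches GAPDH, TPI1, PGAM1 and LDHA, since these have processed pseudogenes. The 65 GAPDH pseudogene entries held 833 and 737 counts and the 4 of TPI1 held 803 and 658.

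The end of lower glycolysis showed differences between isoforms. PKLR encodes the liver and red cell pyruvate kinase and PKM the muscle and tumor forms. PKLR (chr1:155289293-155301438, ENSG00000143627) had 4133 counts in FFA and 1889 in FFA + 9-cis-RA, 62.2 and 30.8 TPM. It was 2.15-fold lower, with a log2 fold change of -1.10 and a 95% interval of -1.18 to -1.02. PKM had 45676 and 41973 counts, 254 and 253 TPM, and a log2 fold change of -0.094. PKM therefore made up 80.3% of pyruvate kinase TPM in FFA and 89.1% in FFA + 9-cis-RA. Of the raw pyruvate kinase counts, PKLR took 8.30% (95% interval 8.06 to 8.54) and 4.31% (4.12 to 4.50), intervals that did not overlap. ENO2, the neuronal enolase, had 11633 and 7607 counts and was 1.50-fold lower (log2 fold change -0.59, 95% interval -0.63 to -0.54). ENO1, the widespread form, had 63427 and 63889 counts and a log2 fold change of 0.038, and its share of the TPM of ENO1 and ENO2 was 81.7% and 87.3%.

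**Figure D2:**
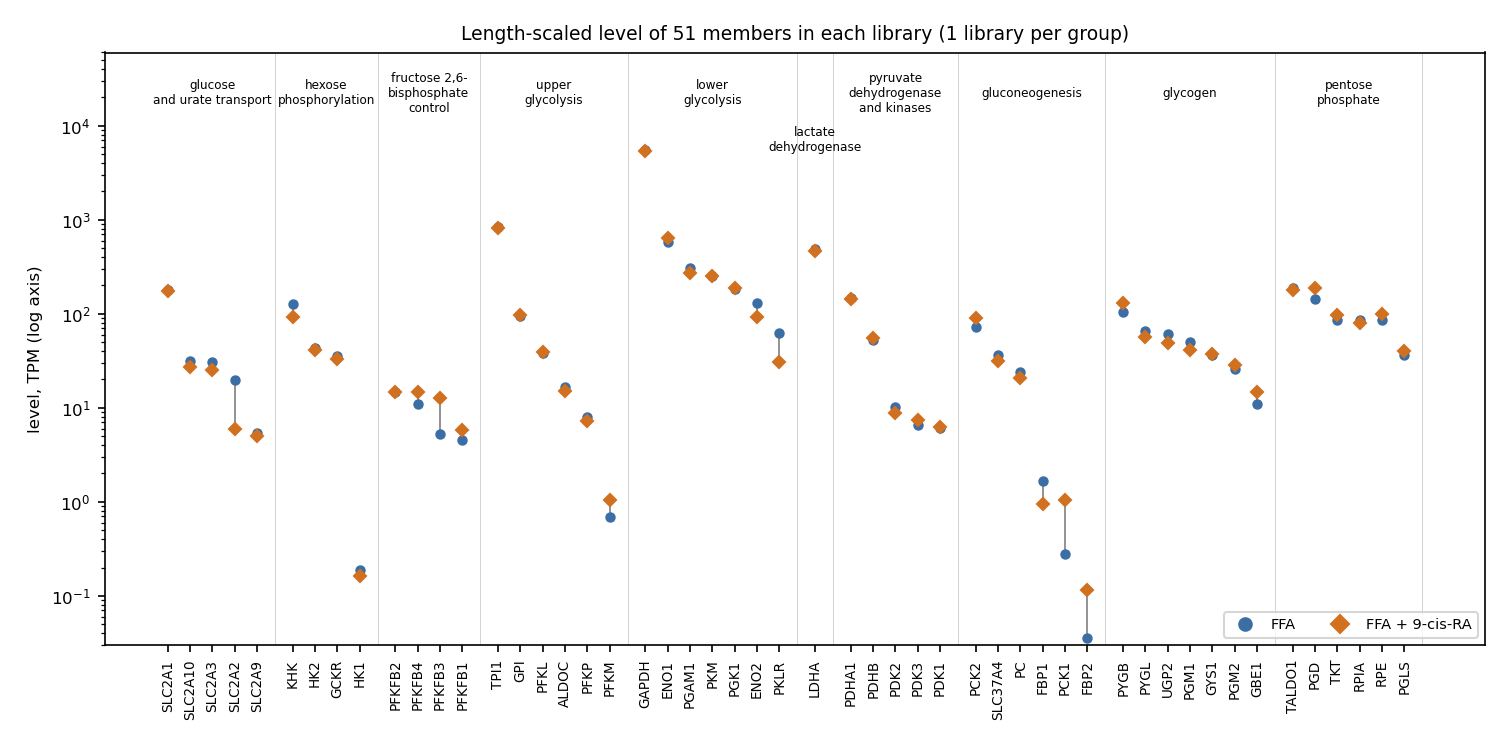
Level of 51 genes (TPM, log axis) in the library of FFA cells (circles) and that of FFA + 9-cis-RA cells (diamonds), ordered by level within each pathway; ALDOA, LDHB and GYS2 are left out because most of their coding bases are shared with another gene. GAPDH is highest at 5507 and 5428 TPM, and the gaps between symbols are widest for SLC2A2, PKLR, PFKFB3, PCK1 and FBP2, the last on 1 and 3 counts.

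Pyruvate leaves glycolysis toward lactate or toward the mitochondrion. LDHA, the lactate dehydrogenase subunit typical of muscle and tumors, had 61774 and 54350 counts, 487 and 465 TPM, and a log2 fold change of -0.16. PDHA1 and PDHB encode subunits of pyruvate dehydrogenase, which commits pyruvate to acetyl-CoA. PDHA1 had 13811 and 12629 counts and a log2 fold change of -0.10, while PDHB had 5167 and 5079 counts and an interval that included 0. The PDK kinases inactivate this complex. PDK2 had 1163 and 925 counts and a log2 fold change of -0.30 (95% interval -0.43 to -0.18), and the intervals of PDK1 and PDK3 included 0. PDK2 was the largest of the 3 kinases by TPM in both libraries, with 44.5% and 39.1% of their sum. This rank depended on the division by gene length. By raw counts PDK2 was the smallest, with 23.6% and 19.9%, beside 38.4% and 38.3% for PDK1 and 38.0% and 41.9% for PDK3.

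Gluconeogenesis combined genes with opposite differences. Its median log2 fold change was -0.29 over 5 genes, and the log2 ratio of its summed TPM was 0.10. The median and the TPM sum are scaled differently, and as raw CPM the log2 ratio of the sum was 0.0084. PCK1 encodes the cytosolic phosphoenolpyruvate carboxykinase, the hormone-controlled enzyme of hepatic glucose output. PCK1 (chr20:57561080-57568121, ENSG00000124253) had 40 counts in FFA and 138 in FFA + 9-cis-RA, 0.279 and 1.05 TPM. It was 3.45-fold higher, with a log2 fold change of 1.79 and a 95% interval of 1.30 to 2.36. This was the highest value of the 51 genes, from a level near the bottom of the group. PCK2, the mitochondrial form, had 6340 and 7276 counts, 72.3 and 90.1 TPM, and a log2 fold change of 0.23 (95% interval 0.18 to 0.28). PCK2 made up 99.6% and 98.9% of the TPM of both forms, so the sum was almost wholly the mitochondrial enzyme. The other genes of the set were lower. PC, the pyruvate carboxylase that feeds the pathway, had 3640 and 2926 counts and a log2 fold change of -0.29. SLC37A4, the carrier of glucose 6-phosphate into the endoplasmic reticulum, had 4715 and 3736 counts and a log2 fold change of -0.31. FBP1, the liver fructose bisphosphatase, had only 60 and 32 counts, which gave -0.86 on the log2 scale with a wide interval of -1.55 to -0.24.

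Glycogen genes divided between the isoforms and steps. PYGL encodes the liver glycogen phosphorylase and PYGB the brain form. PYGL had 6288 and 4923 counts and a log2 fold change of -0.33 (95% interval -0.38 to -0.27), and PYGB had 9816 and 11098 counts and a log2 fold change of 0.20. PYGL made up 38.6% of their TPM in FFA and 30.3% in FFA + 9-cis-RA. As raw counts its share was 39.0% (95% interval 38.3 to 39.8) and 30.7% (30.0 to 31.4). PGM1 and UGP2 act one after the other on the way from glucose 6-phosphate to the UDP-glucose used for glycogen. PGM1 had 4265 and 3250 counts and a log2 fold change of -0.36, and UGP2 had 8236 and 6121 counts and a log2 fold change of -0.40 (95% interval -0.45 to -0.35). GBE1, the branching enzyme, had 1062 and 1319 counts and a log2 fold change of 0.34, with a 95% interval of 0.22 to 0.46. The intervals of the muscle-type glycogen synthase GYS1 and of PGM2 included 0, and the value of GYS1, -0.029, became 0.021 with total-count scaling. The summed TPM was 354 in FFA and 355 in FFA + 9-cis-RA. The summed raw counts were 34900 and 31822, with a log2 ratio of -0.056 as raw CPM, so the near-equal sums depended on the scaling.

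The pentose phosphate genes had a median log2 fold change of 0.060 over 6 genes, and their summed TPM was 626 in FFA and 681 in FFA + 9-cis-RA. PGD, the 6-phosphogluconate dehydrogenase and a source of NADPH, had 9922 and 12026 counts and was 1.24-fold higher (log2 fold change 0.31, 95% interval 0.27 to 0.34). PGLS, the lactonase before it, had an interval that included 0. In the sugar-rearranging branch, the epimerase RPE had a log2 fold change of 0.13 and the transketolase TKT one of 0.059. The log2 fold change of the isomerase RPIA was -0.21 and that of the transaldolase TALDO1 was -0.17. The branch thus held genes on both sides of 0, and the largest difference of the set was at the NADPH-producing step.

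**Figure D3:**
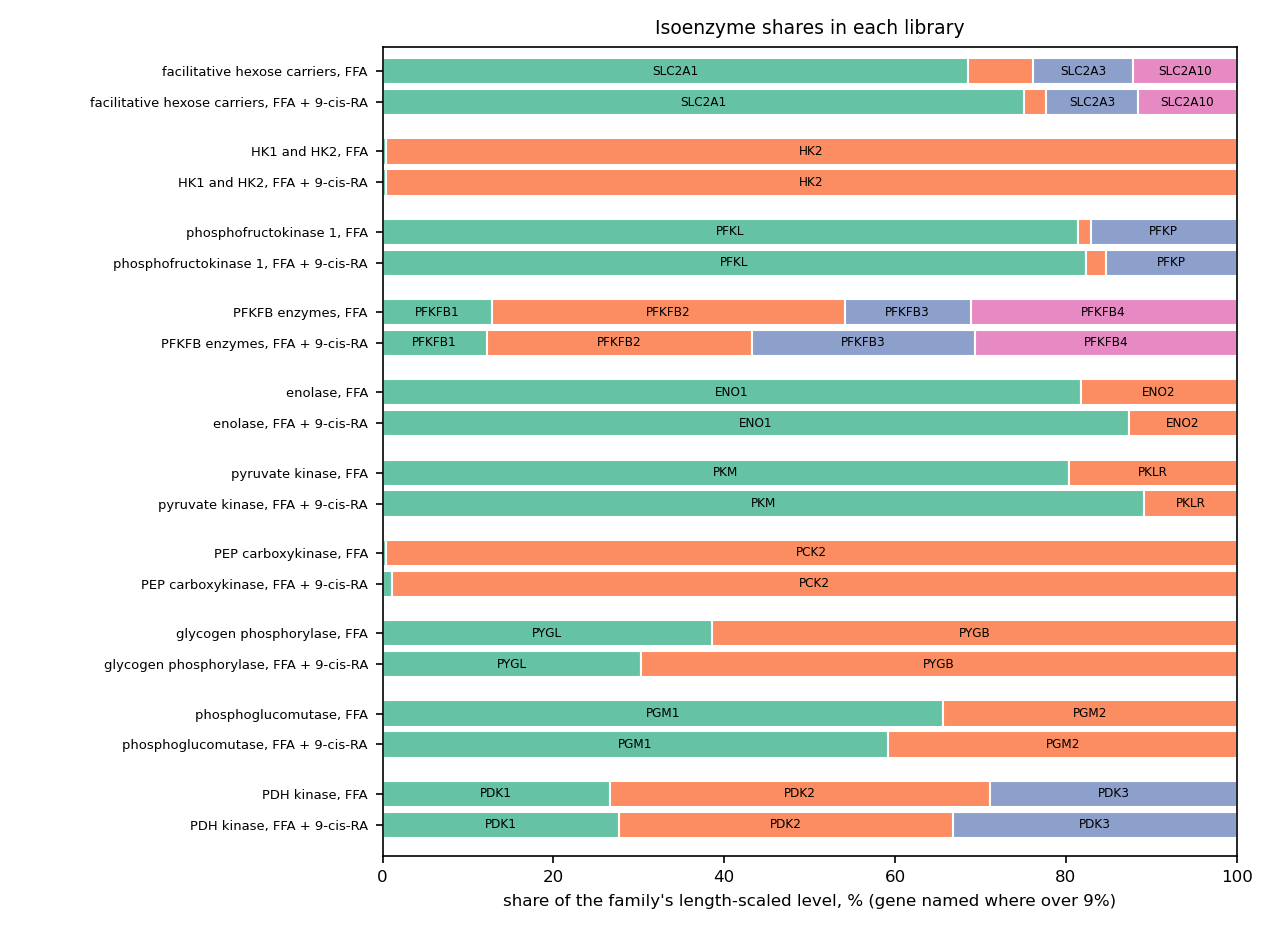
Share of each gene in the summed TPM of the listed genes of its enzyme family (percent), in the FFA and FFA + 9-cis-RA libraries, with the unnamed segments standing for SLC2A2, HK1, PFKM and PCK1. PKM goes from 80.3% to 89.1% of pyruvate kinase, ENO1 from 81.7% to 87.3% of the ENO1 and ENO2 sum, PYGB from 61.4% to 69.7% of the PYGL and PYGB sum and PFKFB3 from 14.8% to 26.2% of the PFKFB enzymes, while PFKL and PCK2 hold most of their families in both. Genes outside the list, such as the hexokinase HKDC1 and the enolase ENO3, are not included.

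Set side by side, the pathways differed in the direction of their medians. The lowest medians were those of the sugar carriers and of gluconeogenesis, both -0.29, followed by hexose phosphorylation at -0.23. With no count minimum, which adds FBP2 on 1 and 3 counts, the gluconeogenesis median was -0.031. Lactate dehydrogenase stood at -0.16 on LDHA alone, lower glycolysis at -0.11, upper glycolysis at -0.070, the pyruvate dehydrogenase genes at -0.060 and glycogen at -0.029, which became 0.021 with total-count scaling. The medians of the pentose phosphate genes (0.060) and of fructose 2,6-bisphosphate control (0.29) were above 0. By summed level the order was not the same. A sum is weighted toward abundant genes, and TPM was scaled to the same sum in each library, without the size factors. Medians and sums are therefore not on the same scale. GAPDH, with a log2 fold change of -0.11, was at 5507 and 5428 TPM. PGK1, with one of -0.047, was at 184 and 189 TPM. The log2 ratio of summed TPM was -0.29 for hexose phosphorylation, -0.14 for the sugar carriers and 0.44 for the PFKFB genes, and it lay between -0.067 and 0.12 for the other 7. The summed TPM of the whole group, without ALDOA, was 10356 in FFA and 10201 in FFA + 9-cis-RA. In 3 families, pyruvate kinase, glycogen phosphorylase and the glucose carriers, the liver-typical transcript took a smaller share with 9-cis-RA. PFKL, the liver subunit of phosphofructokinase, was an exception, with 81.4% and 82.4%. PFKFB1 took 12.9% and 12.2% of its family by TPM, but 3.83% and 3.84% by raw counts. The share of PCK1 in its pair, 0.384% and 1.15%, was higher with 9-cis-RA. Smaller shares were not particular to liver forms. The neuronal ENO2 took 18.3% and 12.7% of its pair, and the platelet subunit PFKP 17.1% and 15.4% of its family.

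**Figure D4:**
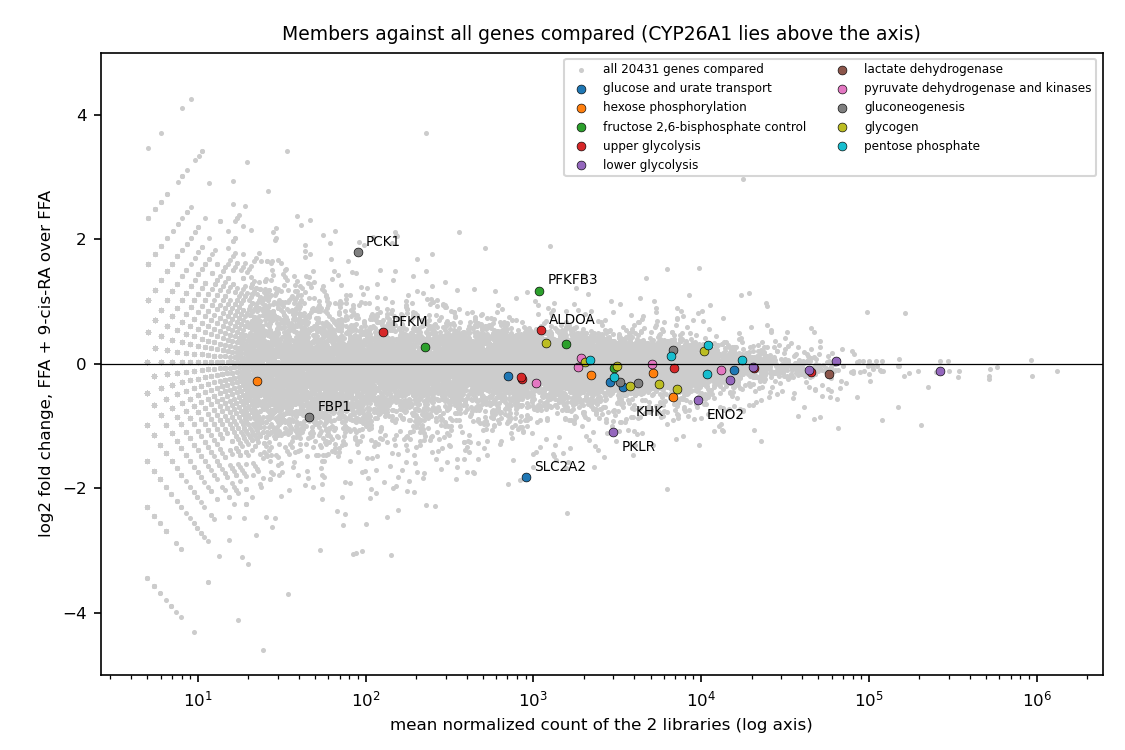
Log2 fold change (FFA + 9-cis-RA over FFA) against the mean normalized count of the libraries (log axis) for all 20431 genes compared (gray) and the 51 members colored by pathway, with the 9 members beyond 0.5 in either direction named. PKLR, SLC2A2 and PFKFB3 lie outside the dense part of the gray points at their count, whereas PCK1, PFKM and FBP1 lie where low counts spread these points.

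Lists of 97 other genes of these pathways and their regulators were compared in the same way, and 85 of them had enough counts. Above 1 was 1 gene and below -1 was 1, beside the shares of 3.37% and 4.90% given above. These were PDK4, a further pyruvate dehydrogenase kinase, with 14 and 33 counts, and CA9, a hypoxia-inducible carbonic anhydrase, with 39 and 10, both named after their values were seen. Above 0.5 were 4 of the 85 (4.71%) beside 9.03% of all genes compared, and below -0.5 were 10 (11.8%) beside 14.3%. The interval lay above 0 for 29 of the 85 (34.1%) and below 0 for 26 (30.6%), beside 22.5% and 25.7% of all genes compared. Among genes with at least 1000 counts, 28 of 65 (43.1%) lay above 0 beside 34.4%, and 21 (32.3%) lay below 0 beside 34.7%. The 15 other glycolysis and fructose genes, 10 of them compared, had a median of -0.33. Among them ENO3, the muscle enolase, had 1418 and 900 counts and a log2 fold change of -0.63, and LDHD, which acts on D-lactate, had 344 and 185 counts and a log2 fold change of -0.86. In sugar transport, the sodium-coupled carrier SLC5A9 had 1871 and 1101 counts and a log2 fold change of -0.74. The median of the 11 transport genes compared in its list was -0.041. In glycogen metabolism, PHKA1, a regulatory subunit of phosphorylase kinase, had 861 and 1566 counts and a log2 fold change of 0.89, and PPP1R3C, which brings a phosphatase to glycogen, had 991 and 603 counts and a log2 fold change of -0.69. The 15 hypoxia-inducible targets outside glycolysis had a median of 0.077, with 6 intervals above 0 and 3 below, and ADM, the vasodilator peptide adrenomedullin, had 939 and 1683 counts and a log2 fold change of 0.87. The 8 glucose-sensing genes had a median of 0.15, with 5 intervals above 0 and 2 below. MLXIPL, which encodes the carbohydrate-responsive factor ChREBP and is named after its value was seen, had 21651 and 24189 counts. Its log2 fold change was 0.19 (95% interval 0.16 to 0.21). PKLR, a known target of ChREBP, was lower with 9-cis-RA while MLXIPL was higher. MLX, also on these lists and named after its value was seen, had an interval below 0. Transcript counts do not measure the activity of ChREBP, and a link between these differences was not tested.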

How the data were processed

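RNA sequencing of HepG2 cells was analyzed from 2 libraries, FFA and FFA + 9-cis-RA, grouped by the treatment field of the sample records. The files that the authors deposited hold raw counts of fragments per gene on GRCh38, made per the file headers with featureCounts version 2.0.1, on the reverse strand (setting 2) and without reads over several genes or places. DESeq2 is named in the submitters' processing notes. The aligner and the annotation release are not given in the sources used here. Of 60623 entries, 60295 were matched to a gene name table and 58516 to GENCODE.

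Size factors came from DESeq2 (version 1.42.0) and TMM factors from edgeR (version 4.0.16), both run in R (version 4.3.3). The log2 fold change used a pseudocount of 1, which understates the change of low genes, and a minimum of 10 counts over both libraries. TPM was computed from the deposited gene length and scaled to the same sum in each library, without the size factors. Python 3.11.15 was used, with scipy 1.17.1 for exact 95% intervals, statsmodels 0.14.6 for loess trends of span 0.3, matplotlib 3.10.9 for plots, and pandas 2.3.3 and numpy 2.4.6 for tables. The floor was 3 counts. Library totals were 60821539 and 57669670. Intervals and floors describe only the error of counting, and fragments without molecular identifiers are not independent molecules. It is not stated whether a library came from 1 culture or a pool.

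The 54 members, the 10 pathways and the 8 lists of other genes were chosen with earlier results of these data known. Named were all members, the other-list genes that reached a normalized count of 100 in either library and a log2 fold change past 0.5 (at most 4 per list, farthest from 0) and CYP26A1 and DHRS3 as a label check, the latter at 1126 and 1999 counts. SLC2A8, SLC2A13, HKDC1, MLXIPL, MLX, PDK4 and CA9 fell outside this rule and were named after their values were seen. Cell type markers were 6 for hepatocytes, 3 for fibroblasts or stellate cells, 3 for endothelium and 3 for leukocytes. Other settings tried were pseudocounts of 0.1 and 5, scaling by TMM or by the total, no minimum or 50 counts, protein-coding genes only, whole intervals past a fold, removal of trends on length and expression, and raw counts for shares and sums. The steps were tested on simulated data. Promoters came from RefSeq (GRCh38.p14).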

Additional observations from a re-analysis of the deposited data

How the results depend on the processing

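No paired analysis was possible because each group had 1 library, and for the same reason no library could be left out. Of the pathway medians and sums, 3 changed sign, namely the median of glycogen, from -0.029 to 0.021 with total-count scaling, and the log2 ratios of the sums of glycogen and of the pyruvate dehydrogenase genes, from 0.0049 and 0.013 to below 0 as raw CPM. Of the genes, 46 of 51 kept their sign under every alternative. The exceptions were PGK1 and GYS1, whose sign differed between scalings, and PDHB, PGM2 and TKT, which reached -0.023, -0.021 and -0.0077 under another alternative. The cause of the following shifts was not tested. With total-count scaling the medians of upper glycolysis, lower glycolysis and lactate dehydrogenase were -0.020, -0.062 and -0.11, and with a length trend removed they were -0.13, -0.16 and -0.20. For lower glycolysis and lactate dehydrogenase, TMM scaling gave -0.091 and -0.14 and removal of an expression trend -0.061 and -0.12. With no count minimum, which takes in genes at or near 0, lactate dehydrogenase stood at -0.079 and gluconeogenesis at -0.031. When the whole interval had to pass the fold, 2 members remained above 0.5 and 3 below -0.5. Of the other pathway genes, main counts of 1 above 1, 1 below -1, 4 above 0.5 and 10 below -0.5 became 0, 0, 2 and 5 with the whole interval, 0, 0, 2 and 6 with at least 50 counts, and 4, 4 and 8 for the first 3 with no minimum. A pseudocount of 0.1 gave 2 below -1, as did removal of the length trend. The shares of all genes past each fold under these other settings are not given here, so these counts have no background beside them. Summed as raw CPM instead of TPM, the log2 ratios were -0.18 for sugar carriers, 0.32 for fructose 2,6-bisphosphate control, -0.063 for upper glycolysis, -0.057 for lower glycolysis, -0.11 for lactate dehydrogenase, -0.019 for the pyruvate dehydrogenase genes, 0.0084 for gluconeogenesis and -0.056 for glycogen. As shares of raw counts, ENO1 gained 4.86 points and PKM 3.99, beside 5.60 and 8.81 per length. Depth limits what can be said of HK1, PFKM, PCK1, FBP1 and FBP2, which had at most 148 counts in a library.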
